A study of Sus scrofa with 6 samples.

Results

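CALCR encodes the calcitonin receptor, and MIR489 is a microRNA gene that lies in one of its introns on the same strand. Every CpG was taken that the deposited tables place in CALCR or in a promoter named for CALCR or MIR489, with both strands summed. This gave 891 of the 14116 CpGs of the tables (6.31%), and each of the 891 had a read. The assay was whole-genome bisulfite sequencing, in which unmethylated cytosines read as T, so a methylation level is the share of reads that kept C. The samples were whole pig embryos of the Landrace x Yorkshire x Duroc (LYD) cross at embryonic day 21. The 3 controls were untreated. The 3 parthenotes grew from oocytes activated by direct-current pulses, carry maternal genomes only and developed in LYD surrogate gilts. The labels do not say whether embryos of a group share a litter, so p-values may measure only the spread between these 6 embryos. The comparison asks whether methylation depends on the paternal genome, which the parthenotes lack. Oocyte activation and development in surrogates are given here for the parthenotes only. Their effects and that of the missing paternal genome cannot be told apart.

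The calcitonin receptor is a class B G protein-coupled receptor that signals mainly through the stimulatory G protein. It restrains bone resorption by osteoclasts, and together with receptor activity-modifying proteins it forms the amylin receptors. CALCR protein marks quiescent muscle stem cells, in which miR-489 is also known to help keep quiescence. In the mouse, Calcr lies next to the imprinted Peg10 cluster and is expressed mainly from the maternal copy in brain, so its methylation in embryos without a paternal genome is of interest. CpG-dense promoters are usually unmethylated and gene bodies usually methylated, and both features were looked for here.

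On chromosome 9 (Sscrofa11.1), CALCR runs from 73279874 to 73403516 on the minus strand, a length of 123643 bp. The MIR489 hairpin occupies 73330690 to 73330770, which is 72746 bp downstream of the outermost CALCR start. GNGT1, which encodes the gamma subunit of the rod photoreceptor G protein transducin, starts 131 bp away at 73403647 and runs in the opposite direction. By the deposited annotation, 704 of the 891 CpGs were intronic, 94 in a 5′ UTR, 64 in coding exons, 14 in the 3′ UTR, 10 upstream and 5 downstream. The intronic and 5′ UTR counts include 55 CpGs inside GNGT1 that belong here through the promoter name only. The tables put 71 CpGs in a promoter of CALCR, 11 in the promoter of MIR489, and none in the gene column under the name MIR489. All values of the microRNA therefore come from its promoter and from the 5 CALCR intron CpGs inside the hairpin.

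The embryos had 380163 to 406443 reads over all CpGs and 25579 to 26982 over the 891 CpGs of CALCR and MIR489. The median CpG of the gene had 29 to 31 reads. A CpG was tested where every embryo had at least 10 reads, which held for 816 of the 891. The labels were checked at the PEG10 promoter, methylated on the maternal copy in mammals: it read 44.0, 44.7 and 34.2% in controls 1 to 3 and 67.04, 69.6 and 87.8% in parthenotes 1 to 3. One control stood apart. Control 1 read 74.7% over all CpGs of the interval against 83.0 to 85.5% in the other 5 embryos. Each level is an average over the cells of a whole embryo, so fewer methylated cells and fewer methylated copies per cell cannot be told apart.

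CALCR as a whole was highly methylated in both groups, apart from its start. The level over the 891 CpGs was 69.4, 82.0 and 79.6% in controls 1 to 3 and 78.6, 78.9 and 81.1% in parthenotes 1 to 3. The groups overlapped, and control 1 was the lowest embryo. The means were 77.0% ± 6.71 (SD, n = 3) and 79.5% ± 1.35 (SD, n = 3), a difference of 2.52 percentage points (2-sided exact permutation test, p = 0.9). The smallest p that this exact test allows with 3 against 3 embryos is 0.1. Without control 1 the difference was -1.29 points (exact p = 0.4), so the sign of the difference rested on that embryo.

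**Figure D1:**
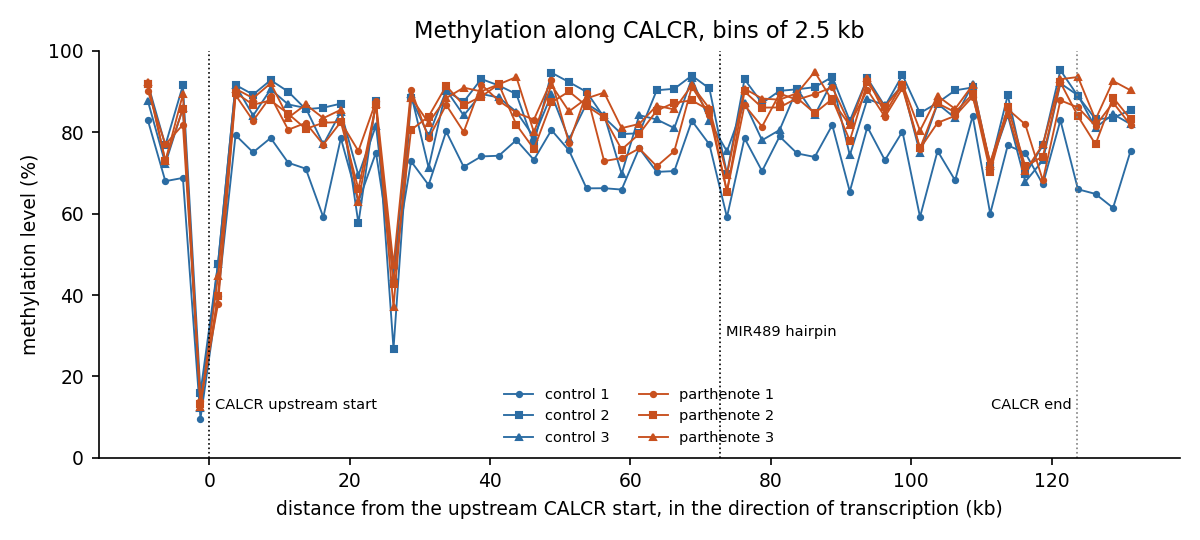
Methylation level (%) of each embryo in bins of 2.5 kb against the distance from the upstream CALCR start in the direction of transcription (kb), with lines for the start, the MIR489 hairpin and the end of the gene. The level drops at the start in all 6 embryos, dips again about 26 kb into the gene, and is 59.1 to 75.3% in the bin that begins at 72.5 kb and holds the hairpin. The bins that begin at 20 kb (57.6 to 75.4%) and at 110 kb (59.97 to 72.6%) are as low.

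The start shared by CALCR and GNGT1 was almost free of methylation in controls and parthenotes alike. A run of 89 CpGs over 2086 bp (73402859 to 73404944), in which each CpG averaged under 25%, read 2.72, 2.66 and 2.16% in controls 1 to 3. In parthenotes 1 to 3 it read 2.92, 1.67 and 3.35%. The groups overlapped, with means of 2.51% ± 0.31 (SD, n = 3) and 2.65% ± 0.87 (SD, n = 3). Since the run was picked by its level, the difference of 0.14 points is a description without a test. The lowest embryo, parthenote 2, had 27 methylated of 1617 reads (95% Wilson interval 1.15 to 2.42%), and the highest, parthenote 3, had 52 of 1551 (2.57 to 4.37%).

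The unmethylated stretch ended at nearly the same CpGs in every embryo. On the GNGT1 side, the nearest CpG at 50% or more was the one at 73405295 in all 6 embryos, 1648 bp into that gene. On the CALCR side it was the CpG at 73402812, 704 bp into the gene, in 5 embryos, and in control 1 the next one, 778 bp into the gene. Between these edges lay 90 CpGs over 2483 bp, or 91 over 2557 bp in control 1.

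Within the run, the CALCR 5′ UTR of the upstream transcripts (23 CpGs) read 2.07, 0.75 and 1.54% in controls 1 to 3 and 0.77, 1.14 and 2.28% in parthenotes 1 to 3. The 48 CpGs of the GNGT1 5′ UTR that carry the CALCR promoter name read 1.32, 1.07 and 1.30% in controls and 2.32, 0.75 and 1.56% in parthenotes. The ranges of the divergent pair's 5′ UTRs overlapped, and no embryo exceeded 2.32%. Of the 89 CpGs of the run, 17 carried a sign of a sequence variant. That sign was a strand without a call or raised A on opposite-strand reads in 1 or more embryos. A strand can also lack a call because reads are few, so at low coverage the sign need not mark a variant. The 10 CpGs between the starts, all with this sign but at only 1.4 to 4.8 reads per CpG, had no methylated read in 5 embryos. Parthenote 1 had 1 of 48. They had only 14 to 48 reads per embryo, so 0 of 14 reads in control 3 allows a level of up to 21.4% and 0 of 34 reads in parthenote 2 one of up to 8.82%. These intervals and limits cover counting error only, and reads over more than 1 CpG enter the sums more than once.

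**Figure D2:**
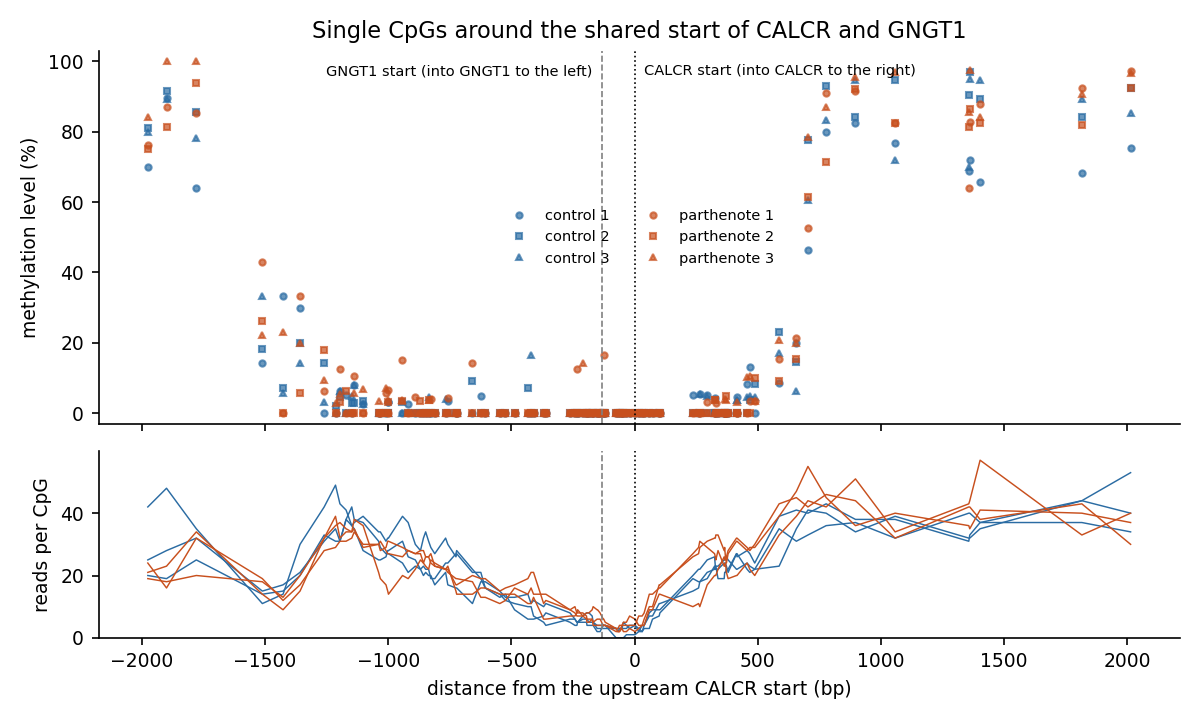
Methylation level (%) of single CpGs, with no minimum of reads (top), and reads per CpG (bottom) in each embryo against the distance from the upstream CALCR start (bp). Levels are near 0 across the start and jump to above 40% at the edge inside CALCR, while reads drop towards the start, to a median of 3 to 6 per CpG within 150 bp of it.

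Coverage was low where methylation was low: the median was 16 to 20 reads per CpG in the run and 3 to 6 over the 20 CpGs within 150 bp of the CALCR start. Of the 75 CpGs not tested, 38 lay in the run. The part of low coverage in the low level was not tested. The 5′ UTR segment next to the start (8 CpGs, 4 with a variant sign) had no methylated read in any embryo. It had 36 to 86 reads per embryo. The next 5′ UTR segment, with 15 CpGs and 345 to 443 reads per embryo, read 0.85 to 2.63%.

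The promoter of CALCR in the deposited tables is a pool of 2 distant pieces, and the pieces had opposite levels. The upstream piece (55 CpGs, 73403656 to 73405493) lies in GNGT1. The internal piece (16 CpGs, 73340053 to 73341978) belongs to other CALCR transcripts that start inside the gene, and lies in a CALCR intron. The pooled 71 CpGs averaged 31.2% in controls and 30.1% in parthenotes, a value that neither piece had. The difference of -1.13 points did not pass edgeR's quasi-likelihood test (adjusted p = 0.858).

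The upstream promoter read 6.47, 12.5 and 8.94% in controls 1 to 3 and 10.0, 7.33 and 7.89% in parthenotes 1 to 3. The groups overlapped, and the difference of -0.87 points did not pass edgeR's test with the pieces fitted apart (adjusted p = 0.849). Most of its methylated reads came from the 7 CpGs farthest from CALCR, in the GNGT1 intron. These read 41.1, 55.4 and 47.3% in controls and 52.7, 48.7 and 48.6% in parthenotes, where the unmethylated run gives way to methylated DNA. A level between 41.1 and 55.4% there is thus a mean over CpGs on both sides of an edge.

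The internal promoter was methylated in every embryo. It read 77.3, 73.1 and 85.1% in controls 1 to 3 and 74.4, 73.2 and 77.0% in parthenotes 1 to 3. The groups overlapped, with means of 78.5% ± 6.06 and 74.9% ± 1.95 (SD, n = 3 each). The difference of -3.62 points did not pass edgeR's test (adjusted p = 0.687). It was -6.30 points without control 2 and -0.33 points without control 3. Its 9 most closely spaced CpGs, over 187 bp (73341539 to 73341725), read 79.7, 65.5 and 85.0% in controls and 71.3, 64.6 and 70.8% in parthenotes. Controls 1 and 3 were above all parthenotes there, but control 2 was below parthenotes 1 and 3, so the groups overlapped. The means were 76.7% ± 10.1 and 68.9% ± 3.71 (SD, n = 3 each). The difference was -7.82 points (2-sided exact permutation test, p = 0.3). These 9 CpGs were picked by their spacing, in a piece split off after the levels were seen, so the test was not planned. The other 7 CpGs read 72.7 to 88.5%, and the internal 5′ UTR downstream (23 CpGs, 73336016 to 73339239) read 70.3 to 90.9%. In each embryo, then, the CALCR start shared with GNGT1 was near 0 and the promoter inside the gene was at 73.1% or more.

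The MIR489 promoter was mostly methylated. Its 11 CpGs (73330772 to 73332731), in a CALCR intron and at the edge of an exon, read 70.4, 80.4 and 76.5% in controls 1 to 3 and 74.3, 68.8 and 73.2% in parthenotes 1 to 3. The groups overlapped. The means were 75.8% ± 5.05 and 72.1% ± 2.93 (SD, n = 3 each), and the difference of -3.71 points did not pass edgeR's test (adjusted p = 0.717). The difference was negative under each alternative that was run, from -6.40 points without control 1 to -1.39 points without control 2. It lay mostly in the 3 CpGs nearest the hairpin. The other 8 CpGs averaged 85.6% in controls and 85.3% in parthenotes, a difference of -0.35 points.

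The microRNA hairpin itself was less methylated than the DNA beside it. A block of 8 consecutive CpGs over 101 bp (73330701 to 73330801), 5 in the hairpin and 3 at the near end of the promoter, read 32.5, 46.5 and 62.9% in controls 1 to 3. In parthenotes 1 to 3 it read 36.8, 32.0 and 48.5%. The embryos spread widely within each group and the groups overlapped, with means of 47.3% ± 15.2 and 39.1% ± 8.50 (SD, n = 3 each) and a difference of -8.22 points. Because the block was chosen by its level, under 75% over the 6 embryos at each CpG, this is a description without a test. Leaving out 1 embryo moved the difference between -15.6 points without control 1 and -0.43 points without control 3, the highest embryo.

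The block had 303 to 338 reads per embryo. These are sums over its CpGs, at about 38 to 42 reads per CpG, so 1 read can enter up to 8 times. None of the 8 CpGs had a sign of a sequence variant, meaning 20% or more A on opposite-strand reads or a strand without a call. The 18 other CpGs within 2000 bp on either side read 78.4, 89.4 and 84.7% in controls and 86.8, 86.2 and 85.7% in parthenotes. In each embryo the block was below these flanks, which its choice by a low level largely set in advance. The 5 CpGs of the annotated hairpin, taken by position alone, read 31.5, 46.1 and 67.8% in controls 1 to 3. In parthenotes 1 to 3 they read 39.3, 36.7 and 53.1%. The block minus its flanks was -45.9, -42.9 and -21.8 points in controls 1 to 3 and -50.03, -54.2 and -37.1 points in parthenotes 1 to 3.

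Single CpGs of the block, named here after their values were seen, had the same highest embryos. At 73330743, inside the hairpin, levels were 31.7, 55.0 and 78.6% in controls 1 to 3 and 43.2, 41.7 and 55.6% in parthenotes 1 to 3. At 73330800, the last CpG of the block, they were 27.0, 36.6 and 43.9% in controls and 25.7, 19.0 and 32.4% in parthenotes. In both cases control 3 was the highest control and parthenote 3 the highest parthenote. The next promoter CpG, at 73331107, already read 73.8 to 92.9%, and the 8 promoter CpGs outside the block together read 80.8 to 91.8%. The 11-CpG promoter value is therefore a mean of 3 low CpGs at the hairpin and 8 CpGs at 80.8% or more.

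**Figure D3:**
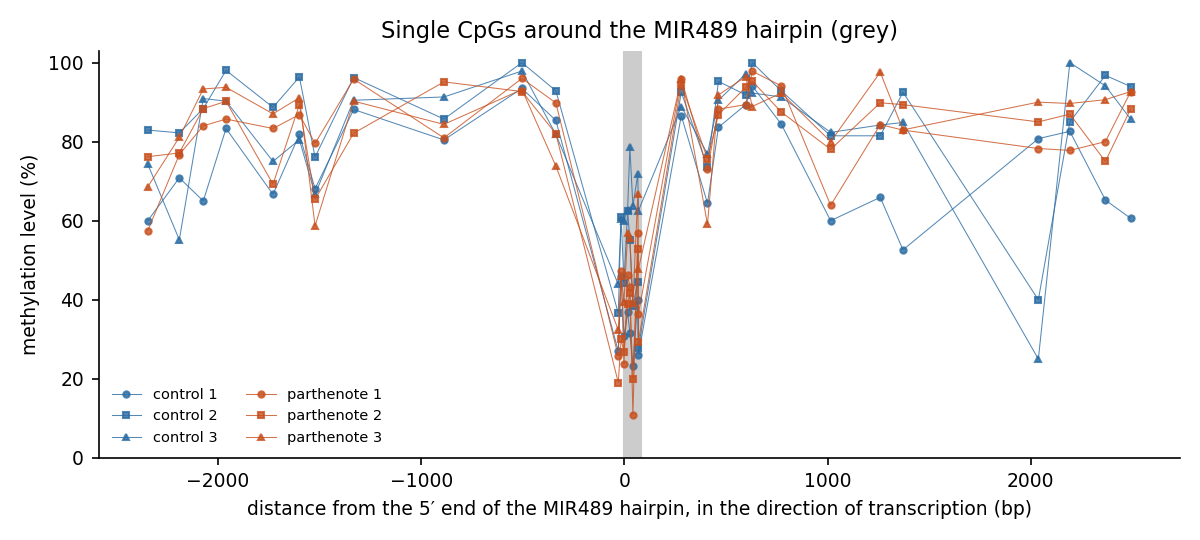
Methylation level (%) of single CpGs in each embryo against the distance from the 5′ end of the MIR489 hairpin (bp, direction of transcription), with the hairpin in grey. The 8 CpGs at the hairpin lie together at 10.8 to 78.6% in all 6 embryos, while their neighbours on both sides are mostly above 60%.

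Coding exons of CALCR were more methylated than its introns in all 6 embryos. The 64 exon CpGs read 82.6, 92.4 and 90.0% in controls 1 to 3 and 86.8, 91.0 and 90.9% in parthenotes 1 to 3. The 658 intron CpGs outside promoters read 73.1, 86.6 and 84.0% in controls and 84.2, 83.7 and 85.7% in parthenotes. The exons were higher by 2.60 to 9.51 points, with a mean of 6.08 ± 2.29 (SD, n = 6; exact sign-flip permutation test, 2-sided p = 0.03125, the smallest that 6 embryos allow). That test was chosen after the levels were seen. Adjusted over the 6 within-embryo contrasts computed, it gave p = 0.0625 (exact test) and did not pass. Those contrasts include the block at the hairpin minus its flanks, chosen by its low level, which had the same exact p. Counting it makes the adjusted p smaller here and for the MIR489 promoter below. The mean gap was 7.11 points in controls and 5.05 points in parthenotes (exact permutation p = 0.4). CpG density was not matched between exons and introns. Of the 658 intron CpGs, those with at least 3 others within 100 bp averaged 87.4%, against 80.8 and 81.4% in the sparser classes.

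By the same contrast, the MIR489 promoter was below the CALCR introns in all 6 embryos, with a mean difference of -8.92 ± 4.43 points (SD, n = 6; exact p = 0.03125, adjusted p = 0.0625). The promoter minus the introns was -2.68, -6.16 and -7.41 points in controls 1 to 3 and -9.82, -14.9 and -12.5 points in parthenotes 1 to 3. The groups did not overlap in this gap, at the smallest exact p that 3 against 3 embryos allow (p = 0.1, adjusted p = 0.4). Without its 3 CpGs at the hairpin, the MIR489 promoter was 2.60 points above the introns on average, and above them in 5 of 6 embryos. The groups then overlapped (exact permutation p = 0.3, adjusted p = 0.4). The means of that gap were 4.42 points in controls and 0.79 points in parthenotes. The separation of the groups thus held only with those 3 CpGs included. The share of such gaps without overlap in other genes is not given here. The internal promoter was below the introns in 4 of 6 embryos (mean difference -6.20 points, exact p = 0.125, adjusted p = 0.15).

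**Figure D4:**
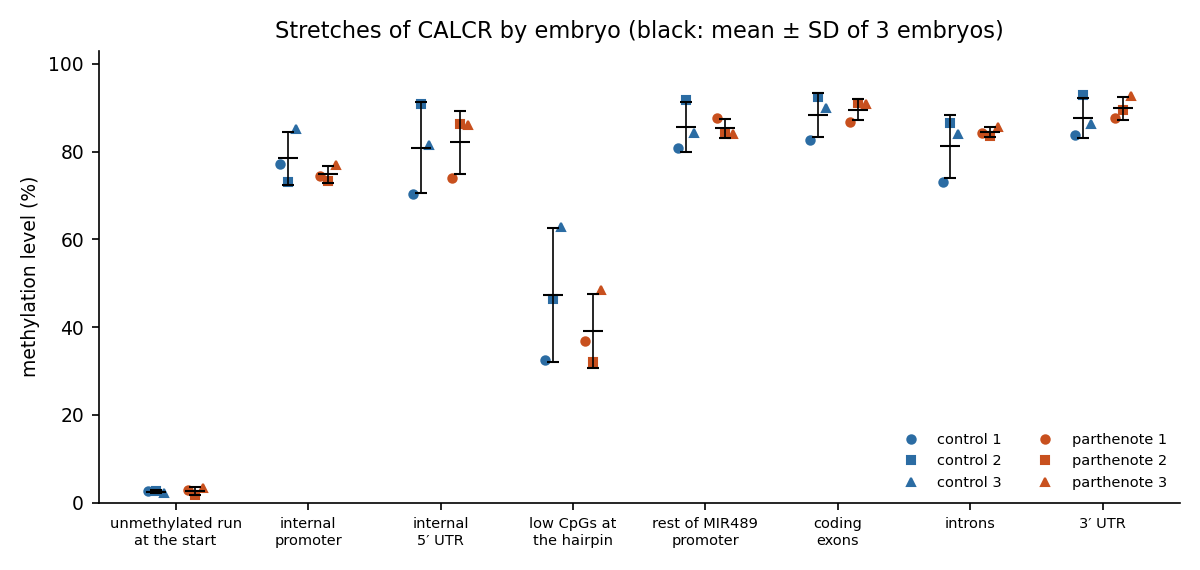
Methylation level (%) of 8 stretches of CALCR in each embryo, with the mean and SD of the 3 embryos of each group in black. The run at the start is below 3.5% and the CpGs at the hairpin lie at 32.0 to 62.9%, while the other stretches lie at 70.3% or above.

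Neither exons nor introns passed the test between groups. The exon set with the UTRs (124 CpGs) averaged 75.9% in controls and 75.7% in parthenotes, a difference of -0.17 points (edgeR adjusted p = 0.966). This set pools the upstream 5′ UTR, at 0.75 to 2.28%, with coding exons at 82.6 to 92.4%, so its level also depends on the reads in each part. Taken apart, the differences were 1.22 points in coding exons, 1.19 in the internal 5′ UTR, 2.17 in the 3′ UTR and -0.05 in the upstream 5′ UTR. The groups overlapped in each part. All 697 intron CpGs averaged 80.6% ± 6.89 and 83.5% ± 1.24 (SD, n = 3 each), a difference of 2.90 points (edgeR adjusted p = 0.772). Without control 1 that difference was -1.03 points (edgeR adjusted p = 0.904). Control 1 was the lowest embryo in 11 of the 11 introns with at least 5 CpGs and in 8 of the 10 coding exons with at least 2. No single exon or intron of these had groups that did not overlap, but the share among exons and introns of other genes is not given here.

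Among the 11 introns, the one that holds the MIR489 hairpin (29 CpGs, 73327463 to 73332500) had the lowest mean over the 6 embryos, 73.5%. It read 65.5, 77.5 and 78.6% in controls 1 to 3 and 73.0, 71.5 and 74.9% in parthenotes 1 to 3. The highest, 88.9%, was a 19-CpG intron near the 3′ end (73293659 to 73295567). Among the 10 exons the median was 90.1%. The exon with the lowest mean, 61.0%, had 3 CpGs (73292090 to 73292121), of which 1 had a variant sign, and read 48.2, 70.9 and 60.5% in controls and 65.6, 57.1 and 63.9% in parthenotes. The last coding exon (22 CpGs) read 90.9, 96.9 and 94.9% in controls and 85.8, 92.7 and 93.1% in parthenotes. The 3′ UTR (14 CpGs) read 83.9 to 92.8%, so CALCR stayed methylated to its end.

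No CpG of CALCR or MIR489 passed the test between groups. With edgeR, 0 of the 816 tested CpGs had an adjusted p under 0.05, against 0.429% of all 12359 tested CpGs of the interval. At an unadjusted p under 0.05 there were 22, of which 20 were higher and 2 lower in parthenotes, that is 2.70% against 3.29% of all tested CpGs (2.99% higher and 0.299% lower). Limma called 0 and 29 unadjusted, against 0.307% and 4.04% of all tested CpGs. DESeq2 called 0 and 11 unadjusted, against 0.356% and 2.08%. Parthenotes were above all controls at 48 CpGs, 5.88% against 6.04% of all tested CpGs, and below all controls at 14, 1.72% against 1.47%. The CALCR shares were thus near those of the whole interval in both directions.

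The same held for longer units. Of the 123 windows of 500 bp that hold a CALCR or MIR489 CpG, edgeR called 0, against 0.314% of all 1911 windows. Limma called 0 as well, against 0.314%, and DESeq2 called 0, against 0.419%. The unadjusted count was 1 with edgeR (2.46% of all windows), 0 with limma (2.3%) and 1 with DESeq2 (2.2%). The window differences ran from -8.22 to 14.8 points with a median of 2.21 points, beside a median of 2.35 points over all windows. Of the promoter of CALCR, the promoter of MIR489, the CALCR exons and the CALCR introns, edgeR, limma and DESeq2 each called 0 (0 unadjusted), against 6.25% (8.33% unadjusted) of the 48 such sets in the interval with each tool.

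**Figure D5:**
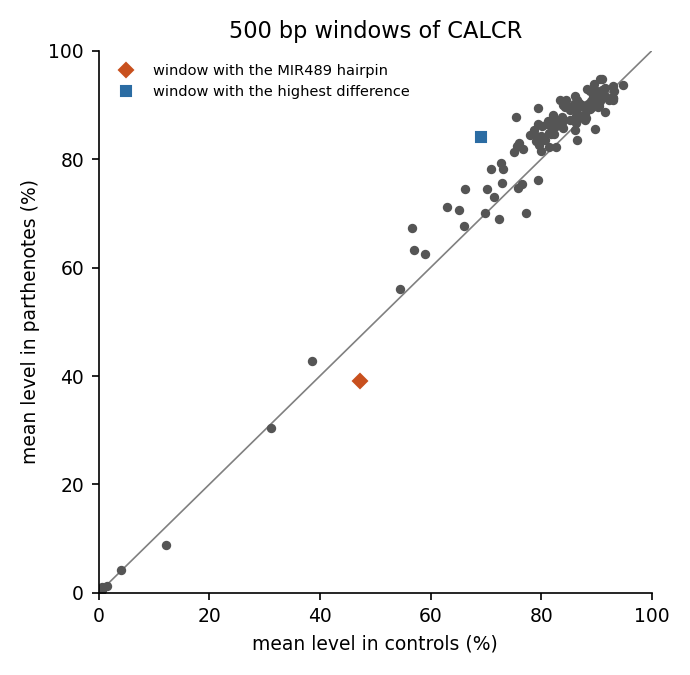
Mean methylation level (%) in parthenotes against that in controls for the 123 windows of 500 bp, 1 point a window, with the line of equality. The points follow the line; the window with the hairpin (orange) has the lowest difference, -8.22 points, and the window of the highest difference, 14.8 points, is in blue.

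The window with the highest difference, at 73324000 in an intron, read 60.3, 79.2 and 68.1% in controls 1 to 3 and 85.6, 81.6 and 84.9% in parthenotes 1 to 3. The groups did not overlap, but the difference of 14.8 points did not pass edgeR's test (adjusted p = 0.995). It holds 1 CpG with a variant sign. It also holds the CpG with the highest difference among those without such a sign, at 73324226, which read 65.0, 71.9 and 30.4% in controls and 76.9, 82.1 and 90.6% in parthenotes (27.5 points, edgeR unadjusted p = 0.0305, adjusted p = 1.0). Without control 3 that difference was 14.8 points. The windows at 73373000 and 73286500 followed, with differences of 12.3 and 10.5 points. In the window at 73373000, controls 1 to 3 read 56.0, 88.2 and 82.1% and parthenotes 85.7, 87.3 and 90.2%, with control 1 the one embryo under 80%. Without control 1 its difference was 2.60 points and without control 2 it was 18.7 points, and 1 of its 3 CpGs had a variant sign. The difference at 73286500 was 5.34 points without control 3.

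In the other direction, the window with the hairpin had the lowest difference. It holds the CpG that was lowest in parthenotes relative to controls, at 73330728 inside the hairpin. That CpG read 23.3, 38.5 and 63.6% in controls 1 to 3 and 10.8, 20 and 39.1% in parthenotes 1 to 3 (-18.5 points, edgeR unadjusted p = 0.126, adjusted p = 1.0). The groups overlapped. The difference was -7.54 points without control 3, -12.2 points without parthenote 1 and -27.7 points without control 1, and it was -9.94 points on the minus strand and -29.04 points on the plus strand. Next came the window at 73341500 in the internal promoter (-7.20 points) and that at 73337500 in the internal 5′ UTR (-4.25 points). With 1 embryo left out, the former ran from -12.6 points (without control 2) to -3.07 points (without control 3) and the latter from -7.35 points (without control 1) to -1.60 points (without parthenote 1). Each of these windows had an adjusted p of 0.995 in edgeR's test.

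CALCR also held short stretches of low methylation in its introns, away from any annotated promoter. The lowest such window, at 73291500, read 15.2, 13.2 and 8.33% in controls 1 to 3 and 10.0, 7.37 and 9.38% in parthenotes 1 to 3, over 3 CpGs of which 1 had a variant sign. It lies 111.8 kb downstream of the start, next to the exon with the lowest level. The window at 73378000 read 36.4, 23.1 and 34.1% in controls and 31.0, 31.1 and 29.2% in parthenotes. Its mean joined unlike CpGs: the one at 73378126 read 77.5 to 100%, and those at 73378330 and 73378368 read 0.0 to 17.6%. With the CpGs at 73376241 and 73376463, which read 0.0 to 12.5%, they lie in the dip about 26 kb into the gene, in controls and parthenotes alike.

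The window at 73382000 varied widely among embryos, and the groups overlapped. It read 50.9, 20.8 and 44.2% in controls 1 to 3 and 61.2, 41.7 and 25.6% in parthenotes 1 to 3. Its CpGs at 73382346, 73382355 and 73382368 followed each other, with 10.7, 17.9 and 16.1% in control 2 and 61.8, 66.7 and 64.7% in parthenote 1. None of its CpGs had a variant sign. The windows at 73289000 and 73358000, the other low ones, averaged 60.1 and 60.7% over the 6 embryos and also had overlapping groups.

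Of the 816 tested CpGs, 571 (70.0%) averaged 80% or more, 159 were between 50 and 80%, 32 between 10 and 50% and 54 under 10%. The median was 86.8%, against 89.3% for the other 11543 tested CpGs, of which 76.6% were at 80% or more. Of the 123 windows, 4 (3.25%) averaged 25 to 60%, against 3.87% of all windows. The introns of CALCR ranked 8 of 15 genes from the lowest, with a mean of 82.0% over the 6 embryos. Those of the neighbours were at 82.8% in GNGT1, 77.8% in GNG11, which encodes another G protein gamma subunit, and 62.6% in TFPI2, a protease inhibitor gene. Of the 10 genes of the pathway list, only the G protein gamma genes GNGT1 and GNG11 lie in the interval. The other 8, the calcitonin receptor relatives and partners, do not. MIR653, the usual neighbour of MIR489, was not analysed here.

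Where exons and introns could both be measured, CALCR had the third-highest excess of exons over introns among 13 genes, 6.91 points with all its introns. SGCE (8.52 points) and PEG10, the imprinted pair, were above it. In PEG10 the exons exceeded the introns by 44.2 to 46.3 points in controls and by 7.70 to 10.9 points in parthenotes, so its mean over the 6 embryos describes neither group. In TFPI2 and GNG11 the difference was -33.9 and -43.7 points. CpG density was looked at over the 658 CALCR intron CpGs outside promoters, which leaves out the intron CpGs at the unmethylated start. Those with at least 3 other CpGs within 100 bp averaged 87.4% over the 6 embryos. Those with 1 or 2 averaged 80.8% and those with none 81.4%. In the introns of the other genes the same classes read 86.6, 83.1 and 83.1%.

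The promoters nearest in level to the pooled CALCR promoter were those of GNGT1, PON2 and COL1A2, with mean absolute differences over the 6 embryos of 2.75, 5.41 and 6.47 points. All 46 CpGs of the GNGT1 promoter lie in CALCR or between the starts, and none of them is a CpG of the CALCR promoter. The pooled level belongs to neither piece, however: the upstream piece was 21.7, 26.7 and 18.5 points from GNGT1, PON2 and COL1A2, and the internal piece 46.2, 41.1 and 49.3 points. PON2 belongs to the paraoxonase family and COL1A2 encodes a chain of type I collagen. The promoters nearest to that of MIR489 were those of TFPI2 (4.40 points), GNG11 (5.36 points) and PON3, another paraoxonase gene (5.89 points). The internal CALCR promoter on its own was 5.16 points away. These are likenesses of level over 6 embryos and carry no test.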

How the data were processed

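Genomic DNA of 6 whole embryos (3 controls, 3 parthenotes) was converted and made into libraries with the Accel-NGS Methyl-Seq kit, per the labels' protocols. Per the submitters' processing notes, the tools were BSMAP 2.87 and the build Sscrofa11.1. Trimming, duplicate removal and conversion rate are not given in the sources used here, so unconverted cytosines and PCR duplicates may affect the levels. Per the file headers, the authors deposited, for each CpG cytosine of 1 interval of chromosome 9 (73250031 to 75349903), the count of reads with C and of reads with C or T, and opposite-strand counts of G and of G or A. They also deposited an expected count, the C-or-T count corrected for C-to-T variants, and a methylation fraction with its interval. The raw counts were used here, summed over strands.

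Methylated and unmethylated counts were compared with edgeR 4.0.16 (quasi-likelihood test, R 4.3.3), with a coverage term per embryo and a group term, over all tested CpGs (at least 10 reads in every embryo), all 500 bp windows (3 or more CpGs, and 30 or more reads per embryo) and all promoters, exon sets and intron sets of the interval. P-values were Benjamini-Hochberg adjusted within each kind, and an adjusted p under 0.05 was a call. The scripts were tested on simulated data. Alternatives were limma 3.58.1 (logit levels, offset 0.5), DESeq2 1.42.0, other read minimums, window and promoter sizes, single strands, the expected counts, CpGs without a variant sign, a block on the replicate number, and leaving out each embryo. Single levels were compared with 2-sided exact permutation tests. Tables were handled with Python 3.11.15, pandas 2.3.3, numpy 2.4.6 and scipy 1.17.1, and figures drawn with matplotlib 3.10.9.

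The members and lists were chosen with earlier results of these data known. The split of the CALCR promoter, the run at the start, the block at the hairpin and the contrasts within embryos were chosen after seeing the levels. The closely spaced part of the internal promoter was set by CpG spacing within that split and was not planned. Named by rule were any called CpG, the CpG without a variant sign and the 3 windows with the largest difference in each direction, the 5 lowest windows without promoter CpGs, and the 3 promoters nearest in level. The variant sign of a CpG was, in 1 or more embryos, a strand without a call or an A share of 20% or above among 10 or more reads of the opposite strand.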

Additional observations from a re-analysis of the deposited data

How the results depend on the processing

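Of 342 alternative values, 307 kept their direction and their side of the threshold. The count of called member windows was 0 in each alternative. The count of called member CpGs was 0, but 1 with the expected count of the authors, 1 on the minus strand alone, and 0 to 2 when 1 embryo was left out: 1 without control 2 and 2 without parthenote 1. Each of these calls was a CpG with a sign of a sequence variant. None of the 58 alternative tests of the promoters, exons and introns passed the threshold (smallest adjusted p = 0.355).

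Same-numbered controls and parthenotes did not deviate together in every pair (r = 0.19, 0.19 and -0.28 over 1911 windows), so the replicate numbers were not taken to pair the embryos, and not every embryo correlated best with its own number. A replicate block called 2 CpGs, both with a variant sign, and changed no other call.

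Differences near 0 changed sign. That of the pooled CALCR promoter was 0.018 points over CpGs with at least 10 reads, 0.060 points with the promoter from 1000 bp upstream to 500 bp downstream, and -2.23 to 0.81 points with 1 embryo left out. For the CALCR exons it was 0.53 points over CpGs with at least 10 reads, 1.07 points on the minus strand, and -3.07 to 2.45 points with 1 embryo left out. Leaving out 1 embryo gave -1.03 to 5.43 points for the introns and -1.29 to 5.02 points for all member CpGs, and the negative values came without control 1. With 1 embryo left out, the upstream promoter ranged from -2.28 to 0.71 points (positive without control 2), and the run at the start from -0.22 to 0.63 points (below 0 without control 3, parthenote 1 or parthenote 3). The window at 73358000 had -0.87 points without variant CpGs, and -2.72 to 8.23 with 1 embryo left out (negative without control 2 or parthenote 1). That at 73378000 had 1.35 on the plus strand, and -4.83 to 1.81 (positive without control 1 or control 3). That at 73382000 had -1.77 on the minus strand, and -4.96 to 12.8 (negative without control 2 or parthenote 1). Depth limits the CpGs next to the CALCR start most, with a median of 3 to 6 reads.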

Other observations

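The 3 member CpGs called under some alternative setting all lie in CALCR introns and all carry a sign of a sequence variant. At 73315025, methylation was 88.6, 92.0 and 91.4% in controls 1 to 3, 96.3% in parthenote 1, and 0 of 25 and 0 of 23 reads in parthenotes 2 and 3, where one strand had no call. At 73322089, methylation was 38.3, 45.5 and 38.1% in controls 1 to 3, 79.5% in parthenote 1 and 0.0% in parthenotes 2 and 3. There, plus-strand reads showed A in 52.9, 44.0 and 50% of cases in controls 1 to 3 and in 0.0% in parthenote 1, with no call in the other two parthenotes. At 73365014, methylation was 25, 88.9 and 46.2% in controls 1 to 3 and 93.9, 86.8 and 95.3% in parthenotes 1 to 3. Minus-strand reads showed A there in 65.4% of cases in control 1 and 56.3% in control 3, and in 0.0% in control 2 and the parthenotes. At the last CpG, the 2 controls with A reads were those with the low level. Of the 891 CpGs of CALCR and MIR489, 51 carry such a sign, and 25 of these were tested.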
